A study of Mus musculus with 17 samples.

Results

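The 10 genes described here encode the enzymes, a partner protein and a receptor of prostaglandin and leukotriene synthesis: Pla2g4a, Ptgs1, Ptgs2, Ptges, Tbxas1, Hpgds, Ptgir, Alox5, Alox5ap and Ltc4s. They were taken by symbol from a table of 21683 rows, where each of the 10 has 1 row, and all 10 were among the 10451 genes tested. RNA-Seq was performed on mouse peritoneal macrophages (PMs), cells recruited to the peritoneal cavity by thioglycollate, in 3 groups. IKKβ F/F PMs, whose Ikbkb alleles carry loxP sites but no Cre, were given PBS (PBS PMs in the text, F/F PBS in the plots, 6 libraries) or 100 nM of recombinant Tat, the transactivator protein of HIV (F/F Tat, 6 libraries). IKKβ ΔMye PMs, which also carry a heterozygous LysM-Cre knock-in at Lyz2 that deletes IKKβ in myeloid cells, were given the same Tat (ΔMye Tat, 5 libraries). All mice were male and 8 weeks old, on a background given as C57BL/6 in the labels and C57BL/6J in the study's methods. Treatment lasted 12 h and began after 4 h of attachment. The labels place the cell collection 3 days after a 3% thioglycollate injection, and the study's methods 4 days after it. No ΔMye PMs given PBS were analysed here, so what sets ΔMye Tat apart from F/F Tat may already have been there before Tat. The Cre knock-in and the deletion cannot be told apart either, since both are in ΔMye alone. The labels do not say that the libraries of a group come from separate mice. The study's heatmap caption describes its columns as biological replicates of mouse. The p-values measure only the spread between these libraries.

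Eicosanoids are made from arachidonic acid that a phospholipase releases from membranes. Cyclooxygenases turn it into prostaglandin H2, which terminal synthases convert to prostaglandins or thromboxane, and 5-lipoxygenase, with its helper protein FLAP, turns it into leukotriene A4, the parent of the leukotrienes. In macrophages COX-2 and the microsomal prostaglandin E synthase are known as genes that inflammatory stimuli induce, through NF-κB among other factors, and IKKβ is the kinase that releases NF-κB.

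In F/F Tat, 3 of the 10 genes lay wholly above PBS PMs and 7 wholly below, against 15.3% and 62.4% of all tested genes. Ptgs2, which encodes COX-2, had 285 times the mean TPM of PBS PMs in F/F Tat, and Ptges was 8.26-fold and Pla2g4a 2.68-fold higher. The other 7 genes were 3.13-fold (Ltc4s) to 8.72-fold (Alox5ap) lower. In ΔMye Tat, Ptgs2 and Ptges were lower than in F/F Tat but far above PBS PMs. Alox5ap and Tbxas1 were higher than in F/F Tat, though still below PBS PMs. Alox5 and Ptgs1, lower with Tat, were lower still in ΔMye Tat. Pla2g4a, higher with Tat, was slightly higher still as deposited, and Hpgds, Ptgir and Ltc4s overlapped between the Tat groups. Of all tested genes, 28.6% lay wholly above F/F Tat in ΔMye Tat and 8.01% wholly below it.

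Ikbkb was 24.5 to 30.1 TPM in PBS PMs, 21.6 to 25.4 in F/F Tat and 12.8 to 19.9 in ΔMye Tat, lower in ΔMye Tat than in F/F Tat by 0.51 on the log2 scale (limma, adjusted p = 4.51e-05). A TPM over the whole gene counts exons outside the deleted part, so it is a weak check of the labels. TPM is a share of all transcripts scaled for transcript length, so levels can be set side by side between genes, but a few very abundant transcripts change the share left for all others. Over all tested genes the median log2 difference was -0.65 for F/F Tat against PBS PMs and 0.22 for ΔMye Tat against F/F Tat. Differences of the 10 genes are therefore also given after median-ratio scaling, which divides a library by its median ratio to the average library over genes above 0 in all 17 libraries. After it these medians were -0.03 and 0.01. "Rose" and "fell" are used below for an adjusted p under 0.01, and "called" for an adjusted p under 0.01 together with a fold change over 3, the thresholds of the study.

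To show what stands before genes that moved in each direction, promoter windows of 250 bases before to 50 bases after the RefSeq start (GRCm38.p6) were searched on both strands for 6 motifs. The motifs were chosen after the Ptgs2 window was read, so their presence there is no finding. The table held windows for 9 of the 10 genes, all but Alox5ap. The 150 bases before the start are printed for Ptgs2 (chr1:150099881-150100030, + strand), for Ptges (chr2:30903298-30903447, - strand), the pair called higher with Tat, and for Tbxas1 (chr6:38918836-38918985, + strand), called lower. The Ptges and Tbxas1 stretches lie inside the gene spans given below, before a start within each span. A short site after the Ptgs2 start (chr1:150100035-150100060, + strand) follows. Capitals mark motif matches.
Ptgs2: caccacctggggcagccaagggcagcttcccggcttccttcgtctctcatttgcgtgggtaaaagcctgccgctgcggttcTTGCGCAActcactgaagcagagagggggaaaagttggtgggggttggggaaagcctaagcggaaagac
Ptgs2 after the start: tcaccactACGTCACGTGgagtccgc
Ptges: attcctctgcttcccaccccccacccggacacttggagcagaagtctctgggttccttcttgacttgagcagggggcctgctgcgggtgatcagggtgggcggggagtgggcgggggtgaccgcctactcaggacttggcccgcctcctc
Tbxas1: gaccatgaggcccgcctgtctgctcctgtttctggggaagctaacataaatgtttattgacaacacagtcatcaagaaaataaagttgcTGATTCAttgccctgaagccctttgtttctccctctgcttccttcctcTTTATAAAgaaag

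The capitals before the Ptgs2 start are a C/EBP palindrome, TTGCGCAA, 69 to 62 bases before the start, which 0.183% of the 32851 windows held. The capitals after the start hold the cyclic AMP response element core TGACGT, read on the opposite strand at bases 13 to 18, and the E-box CACGTG at bases 17 to 22, which overlap by 2 bases. Of all windows, 7.51% held the former and 7.15% the latter. In Tbxas1 the capitals are an AP-1 motif, TGANTCA, 61 to 55 bases before the start (in 7.81% of windows), and TATAAA on either strand 13 to 6 bases before it (13.6%). TATAAA also occurred in 1 of 2 windows of Pla2g4a. The κB motif searched was in 8.46% of windows and in none of the 9 genes' windows, and the Ptges window held none of the 6 motifs. A match, or the lack of one, describes letters in the window only. Sequence farther before the start was not searched, so the κB result does not show that these genes lack such sites.

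Pla2g4a (chromosome 1, 149829618 to 149961290, - strand, GRCm38) encodes cytosolic phospholipase A2, which releases arachidonic acid. Its lowest, median and highest values were 20.2, 21.3 and 22.98 TPM in PBS PMs and 54.2, 58.6 and 59.6 TPM in F/F Tat. It was 64.6, 64.8, 64.3, 66.2 and 65.0 TPM in the 5 ΔMye Tat libraries. No F/F Tat library overlapped PBS PMs, and every ΔMye Tat library lay above every F/F Tat library. With Tat, Pla2g4a rose by 1.42 on the log2 scale (standard error 0.04, limma adjusted p = 1.05e-17), under the 3-fold threshold, and by 2.05 after scaling, above it. Against F/F Tat, ΔMye Tat was at 0.18 (adjusted p = 7.81e-04) as deposited and -0.04 (adjusted p = 0.524) after scaling, so its direction depended on the scaling.

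Ptgs1 and Ptgs2 encode the 2 cyclooxygenases, COX-1, the form most cells make all the time, and COX-2, the inducible form. Ptgs2 (chromosome 1, 150100031 to 150108227, + strand) was 7.89, 8.59 and 9.19 TPM at its lowest, median and highest in PBS PMs. In F/F Tat these values were 2208, 2462 and 2616 TPM, and the ΔMye Tat libraries had 1618, 1598, 1456, 1466 and 1362 TPM. The 3 groups did not overlap at any point, with F/F Tat highest and ΔMye Tat nearer to F/F Tat than to PBS PMs. Ranked by TPM within its library, Ptgs2 stood between 6591 and 7003 in PBS PMs, between 46 and 59 in F/F Tat and between 82 and 105 in ΔMye Tat. With Tat it rose by 8.14 on the log2 scale (standard error 0.05, adjusted p = 4.84e-27) and by 8.76 after scaling.

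Ptgs1 (chromosome 2, 36230426 to 36252272, + strand) went the other way, from a low level. Its lowest, median and highest values were 4.38, 4.94 and 6.18 TPM in PBS PMs and 0.85, 1.34 and 1.64 TPM in F/F Tat. It was 0.83, 0.59 and 0.49 TPM in ΔMye Tat libraries 19, 20 and 21 and was listed at 0 in libraries 22 and 23. The 3 groups did not overlap. With Tat, Ptgs1 fell by 1.92 on the log2 scale (standard error 0.45, adjusted p = 5.33e-04) and was called. After scaling its difference was -1.31 with an adjusted p of 0.0122, past the threshold no longer.

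**Figure D1:**
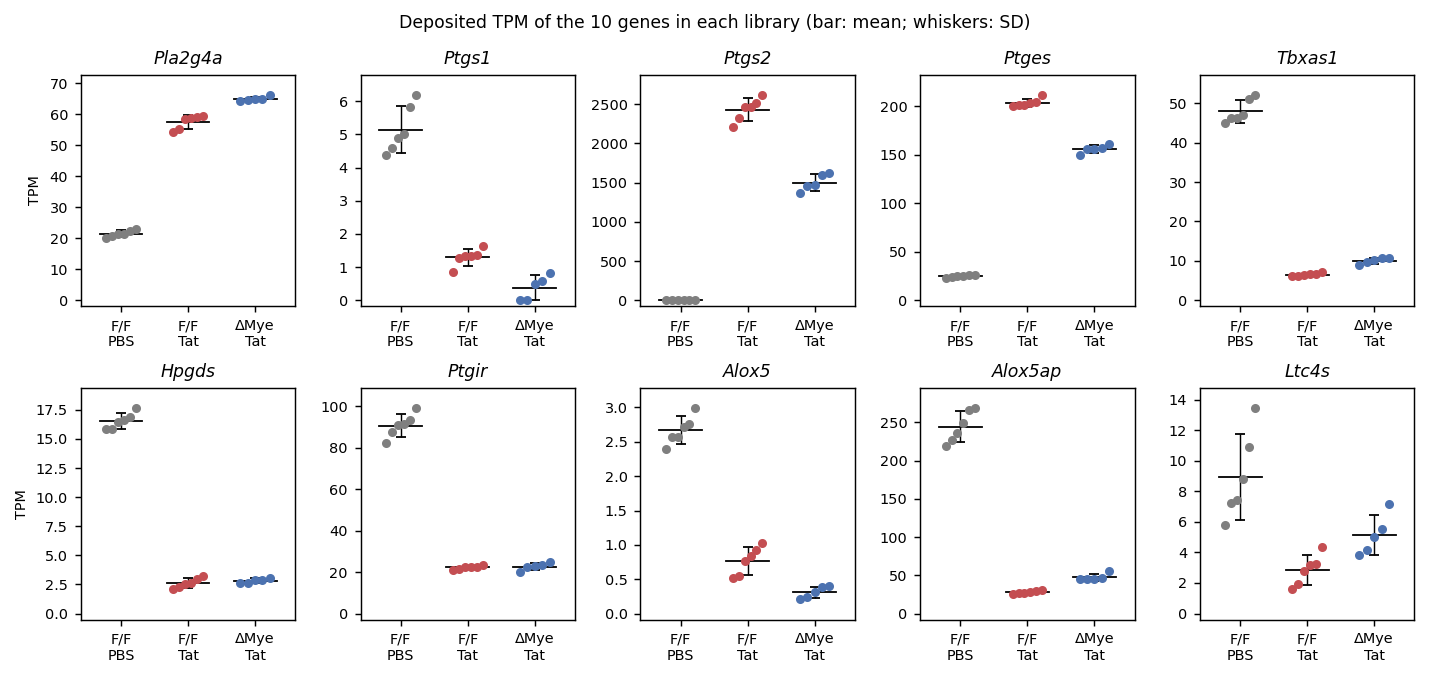
TPM of the 10 genes in each of 17 libraries (points), by group on the x axis, with a linear y axis that includes 0 in each panel; bars are means and whiskers SD over 6, 6 and 5 libraries. Ptgs2 reached 2208 to 2616 TPM in F/F Tat against 7.89 to 9.19 in PBS PMs, and Alox5ap dropped from 219 to 268 TPM to 25.5 to 30.3.

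Of the enzymes that work on prostaglandin H2, Ptges went up and Tbxas1 and Hpgds went down. Ptges (chromosome 2, 30889471 to 30929863, - strand) encodes microsomal prostaglandin E synthase, the enzyme coupled to COX-2. Its lowest, median and highest values were 23.3, 24.8 and 25.8 TPM in PBS PMs and 199.8, 203 and 212 TPM in F/F Tat, and it was 161, 156, 157, 156 and 149.8 TPM in ΔMye Tat. The spread within each group was at most 4.15% of the mean (coefficient of variation), and the 3 groups stood apart. With Tat, Ptges rose by 3.04 on the log2 scale (standard error 0.03, adjusted p = 3.63e-24) and by 3.67 after scaling.

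Tbxas1 (chromosome 6, 38875404 to 39084585, + strand), the gene of thromboxane A synthase, was 44.99, 46.7 and 52.1 TPM in PBS PMs and 6.09, 6.46 and 7.06 TPM in F/F Tat at its lowest, median and highest. It was 9.72, 10.6, 8.98, 10.7 and 10.1 TPM in ΔMye Tat, above every F/F Tat library and below every PBS library. With Tat, Tbxas1 fell by 2.86 (standard error 0.06, adjusted p = 1.18e-19), or by 2.24 after scaling.

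Hpgds (chromosome 6, 65117293 to 65144908, - strand), the hematopoietic prostaglandin D synthase, was 15.8, 16.6 and 17.6 TPM in PBS PMs and 2.09, 2.597 and 3.18 TPM in F/F Tat. In ΔMye Tat it was 2.859, 2.889, 2.598, 3.093 and 2.602 TPM, inside the range of F/F Tat. With Tat it fell by 2.62 on the log2 scale (standard error 0.09, adjusted p = 9.04e-16), or by 2.002 after scaling. These are bulk values, in which fewer cells of a type and less RNA per cell cannot be told apart.

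Ptgir (chromosome 7, 16906490 to 16910905, + strand), the receptor for prostacyclin, was the most abundant prostanoid gene of the 10 in PBS PMs, at 82.4, 91.1 and 99.0 TPM (lowest, median, highest). It was 20.97, 22.4 and 23.5 TPM in F/F Tat and 25.0, 23.2, 22.3, 22.8 and 19.97 TPM in ΔMye Tat. Both Tat groups lay below PBS PMs and overlapped each other. With Tat, Ptgir fell by 2.02 on the log2 scale (standard error 0.05, adjusted p = 6.80e-18). After scaling the fall was 1.39, which is under 3-fold.

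The leukotriene genes among the 10, Alox5ap, Alox5 and Ltc4s, were lower with Tat. Alox5ap (chromosome 5, 149264767 to 149288153, + strand) encodes FLAP, the membrane protein that presents arachidonic acid to 5-lipoxygenase. It was the most abundant of the 10 genes in PBS PMs, at 219, 242 and 268 TPM, and was 25.5, 28.0 and 30.3 TPM in F/F Tat and 45.2, 55.2, 46.6, 45.7 and 44.9 TPM in ΔMye Tat. No library of any group reached into the range of another group. With Tat, Alox5ap fell by 3.12 on the log2 scale (standard error 0.06, adjusted p = 1.20e-19) and by 2.49 after scaling, and its rank in a library went from 438 to 536 in PBS PMs to 2715 to 3017 in F/F Tat.

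Alox5 (chromosome 6, 116410077 to 116461178, - strand), the gene of 5-lipoxygenase itself, was scarce in all groups. Its lowest, median and highest values were 2.39, 2.64 and 2.99 TPM in PBS PMs and 0.51, 0.80 and 1.02 TPM in F/F Tat, and it was 0.40, 0.24, 0.31, 0.38 and 0.22 TPM in ΔMye Tat. The groups did not overlap, and ΔMye Tat was lowest. Alox5 passed the filter of 1 TPM in 5 or more libraries through PBS PMs alone, so its test with Tat was not independent of the filter. With Tat, Alox5 fell by 1.71 on the log2 scale (standard error 0.17, adjusted p = 1.79e-08), or by 1.12 after scaling, under 3-fold. The fall was 1.06 with a pseudocount of 1 and 0.59 under quantile normalization, which gives all libraries the same distribution of values (adjusted p = 0.00307).

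Ltc4s (chromosome 11, 50236461 to 50238616, - strand) encodes leukotriene C4 synthase. It had the largest coefficient of variation of the 10 genes within PBS PMs and within F/F Tat. It was 5.79, 8.12 and 13.4 TPM in PBS PMs and 1.62, 3.00 and 4.38 TPM in F/F Tat at its lowest, median and highest, and 4.19, 4.99, 3.85, 7.16 and 5.55 TPM in ΔMye Tat. PBS PMs and F/F Tat did not overlap as deposited, but ΔMye Tat overlapped each of them. With Tat, Ltc4s fell by 1.63 (standard error 0.23, adjusted p = 1.60e-06), just past 3-fold, and by 1.01 after scaling, where the PBS PMs and F/F Tat libraries overlapped. Without PBS library 2 or 6, or F/F Tat library 10 or 12, its fold change was 2.80 to 2.95 and it was not called.

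Counted together, 2 of the 10 genes were called higher with Tat (Ptgs2 and Ptges), where 5.21% of all tested genes were, and 7 were called lower, where 19.4% of all tested genes were. After median-ratio scaling 3 were called higher (Pla2g4a as well), against 8.51% of all tested genes, and 3 were called lower (Alox5ap, Hpgds and Tbxas1), against 9.76%. As deposited, no gene of the 10 had overlapping PBS PMs and F/F Tat libraries. The 3 that lay wholly higher compare with 15.3% of all tested genes, and the 7 that lay wholly lower with 62.4%. The median log2 difference of the 10 genes was -1.81, against -0.65 over all tested genes, and -1.22 against -0.03 after scaling. In an exact two-sided permutation test of mean TPM, p was 0.00216 for each of the 10 genes, the smallest that 6 against 6 libraries allow. Alox5 is among the 7 lower genes, and its results here are not independent of the filter, which it passed through PBS PMs alone.

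**Figure D2:**
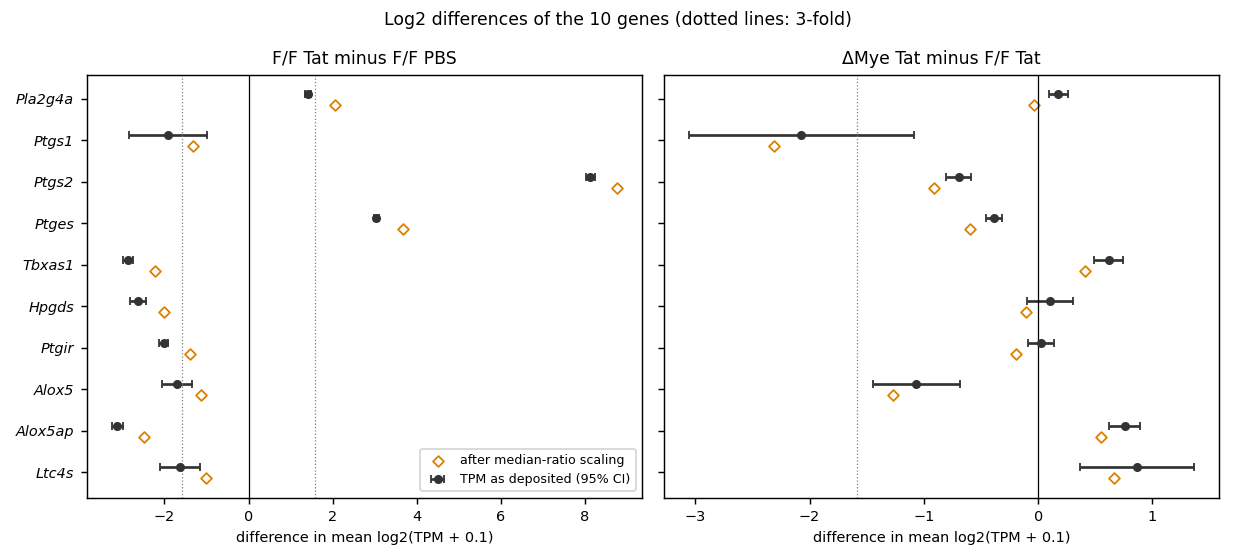
Log2 differences of the 10 genes between F/F Tat and PBS PMs (left) and between ΔMye Tat and F/F Tat (right), on separate x axes: filled points with 95% confidence intervals from limma are TPM as deposited, open diamonds are after median-ratio scaling, and dotted lines mark 3-fold. On the left Ptgs2 stands at 8.14, Ptges at 3.04 and Pla2g4a at 1.42, and the other 7 are below 0; on the right Ptgs2 is at -0.70 and Alox5ap at 0.76, and the 2 marks of Pla2g4a, Hpgds and Ptgir lie on opposite sides of 0.

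Ratios of 2 genes within a library do not depend on the scaling between libraries, and they are given as a description. Ptgs2 made up 58.0% to 67.1% of the summed TPM of Ptgs1 and Ptgs2 in PBS PMs, so the 2 cyclooxygenases were of like abundance there. In F/F Tat its share was 99.94% to 99.97%. Among the terminal synthases Ptges, Tbxas1 and Hpgds, the median share in PBS PMs was 53.8% for Tbxas1, 27.3% for Ptges and 18.6% for Hpgds. In F/F Tat the same shares were 3.03%, 95.7% and 1.22%, and in ΔMye Tat 6.21%, 92.2% and 1.64%. The sum of the 3 synthases also went up, from 85.5 to 94.6 TPM in PBS PMs to 209.6 to 220.4 TPM in F/F Tat, with 162.5 to 174 TPM in ΔMye Tat.

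**Figure D3:**
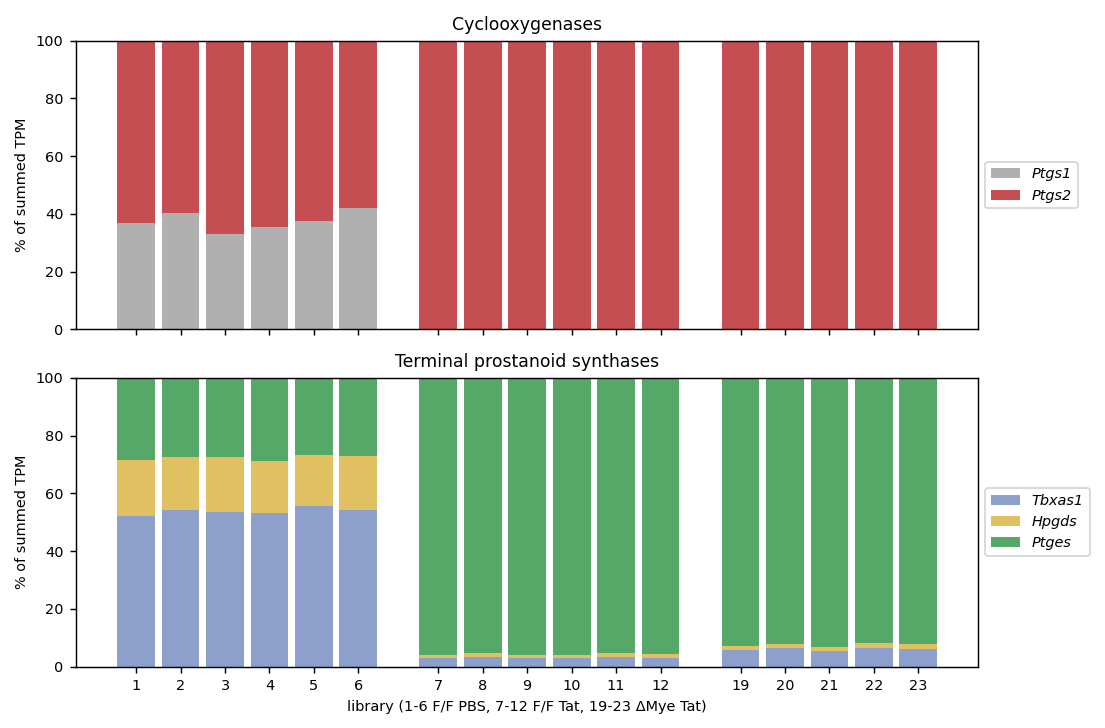
Share of the summed TPM (y axis, percent) taken by each cyclooxygenase gene (top) and by each of 3 terminal synthase genes (bottom) in each library (x axis, library number). Ptges took 26.8% to 28.9% of the synthase sum in PBS PMs, 95.3% to 96.0% in F/F Tat and 91.9% to 93.1% in ΔMye Tat, and Ptgs1 is visible only in PBS PMs.

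The TPM of Ptges was 0.484 to 0.544 times that of Tbxas1 in PBS PMs, 29.0 to 33.4 times in F/F Tat and 14.6 to 17.5 times in ΔMye Tat. The 3 ranges were far apart, and ΔMye Tat lay between the others. Ptgs2 was 0.030 to 0.041 times Alox5ap in PBS PMs, 76.8 to 99.6 times in F/F Tat and 29.0 to 35.8 times in ΔMye Tat, so the more abundant of the 2 was Alox5ap with PBS and Ptgs2 with Tat. Within the leukotriene arm, Alox5ap exceeded Alox5 73.5 to 104-fold in PBS PMs, 27.8 to 59.3-fold in F/F Tat and 114 to 228-fold in ΔMye Tat. Alox5, Alox5ap and Ltc4s summed to a median of 254 TPM in PBS PMs, 31.4 TPM in F/F Tat PMs and 50.8 TPM in ΔMye Tat PMs.

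The comparison of ΔMye Tat with F/F Tat asks how these levels differ between the 2 genotypes under Tat. The pair called higher with Tat was lower in ΔMye Tat. Ptgs2 fell by 0.70 on the log2 scale (standard error 0.05, limma adjusted p = 1.72e-09), from a mean of 2430 ± 145 TPM (SD, n = 6) to 1500.0 ± 107 TPM (SD, n = 5). Ptges fell by 0.38 (standard error 0.03, adjusted p = 9.21e-09), from 204 ± 4.22 to 156 ± 4.16 TPM. After scaling these falls were 0.91 and 0.60.

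Of the genes that fell with Tat, 2 were higher in ΔMye Tat by either scaling. Alox5ap rose by 0.76 (standard error 0.06, adjusted p = 1.12e-08), or by 0.55 after scaling (adjusted p = 4.21e-06), from 28.0 ± 1.97 to 47.5 ± 4.33 TPM. Without ΔMye Tat library 20, whose 55.2 TPM stood above the rest of its group, the difference was 0.70 (adjusted p = 2.63e-08). Tbxas1 rose by 0.62 (standard error 0.06, adjusted p = 6.01e-08), or by 0.41 after scaling (adjusted p = 1.26e-05).

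Alox5 and Ptgs1, which also fell with Tat, were lower still in ΔMye Tat. Alox5 fell by 1.07 (standard error 0.18, adjusted p = 5.98e-05), or by 1.27 after scaling. As deposited, the fall was 0.43 with a pseudocount of 1, and the values of Alox5 in the Tat groups were at most 1.02 TPM. Ptgs1 was the only gene of the 10 called between the 2 Tat groups, at -2.07 (standard error 0.47, adjusted p = 9.28e-04) and -2.31 after scaling, where it was also called. With 2 libraries listed at 0 that size rests on the pseudocount. It was -1.13 with a pseudocount of 0.5 and -0.77 with 1, each with an adjusted p under 0.01 but no longer past 3-fold.

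Ltc4s was 0.86 higher in ΔMye Tat (standard error 0.24, adjusted p = 0.00441). It passed the threshold neither after scaling (0.66, adjusted p = 0.0270) nor without any of F/F Tat libraries 10 and 12 and ΔMye Tat libraries 22 and 23 (adjusted p from 0.0104 to 0.0167). The remaining 2 genes did not pass as deposited. The 95% interval of the log2 difference was -0.10 to 0.30 for Hpgds (adjusted p = 0.362) and -0.09 to 0.13 for Ptgir (adjusted p = 0.748). Ptgir was at -0.19 after scaling, with an adjusted p of 6.73e-04, and Hpgds at -0.10 (adjusted p = 0.359).

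By limma, 0 of the 10 genes were called higher in ΔMye Tat, against 0.44% of all tested genes (at an unadjusted p under 0.05, 4 of the 10 against 52.0%), and 1 was called lower, against 0.316%. At an adjusted p under 0.01 alone, 4 were higher (Alox5ap, Pla2g4a, Ltc4s and Tbxas1), against 38.8% of all tested genes, and 4 were lower (Ptgs2, Alox5, Ptgs1 and Ptges), against 8.87%. After scaling 2 were higher (Alox5ap and Tbxas1), against 16.4%, and 5 were lower (Ptgs2, Alox5, Ptgs1, Ptges and Ptgir), against 18.8%. Of the 10 genes, 3 lay wholly above F/F Tat, against 28.6% of all tested genes, and 4 wholly below it, against 8.01%. The median difference of the 10 genes was 0.06, against 0.22 over all tested genes, and -0.15 against 0.01 after scaling. For the 7 genes without overlap the exact two-sided permutation p was 0.00433, the smallest that 6 against 5 libraries allow.

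As a description, the distance of ΔMye Tat from F/F Tat can be set against the Tat response on the log2 scale, although the F/F Tat libraries enter both. It was 8.56% of the response for Ptgs2, 12.7% for Ptges, 21.5% for Tbxas1 and 24.3% for Alox5ap, and 10.4%, 16.3%, 18.1% and 21.98% after scaling. Ltc4s had the highest value, 53.2% (65.5% after scaling), with single libraries from 30.1% to 84.0%. Hpgds was at 3.90% and Ptgir at 1.05%, and both turned negative after scaling, at -5.16% and -13.7%. Ptgs2 remained 176-fold and Ptges 6.32-fold above PBS PMs in ΔMye Tat by the ratio of means, and Alox5ap 5.14-fold and Tbxas1 4.79-fold below. For Alox5 and Ptgs1 the value was negative, at -62.6% and -108% (-113% and -176% after scaling), as ΔMye Tat lay farther from PBS PMs than F/F Tat did. Single ΔMye Tat libraries ran from -197% to -29.7% for Ptgs1.

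Against PBS PMs, which shares its libraries with the comparisons above, ΔMye Tat had 3 of the 10 genes called higher (Pla2g4a, Ptgs2 and Ptges), against 4.38% of all tested genes, and 6 called lower, against 11.1%. The log2 differences were 7.44 for Ptgs2, 2.66 for Ptges, 1.60 for Pla2g4a, -2.25 for Tbxas1, -2.36 for Alox5ap and -2.52 for Hpgds. After scaling they were 7.85, 3.07, 2.01, -1.83, -1.94 and -2.10 in the same order. Scaled, 3 were called higher, against 6.41%, and 5 lower, against 6.27%, as Ptgir went from -1.998 to -1.58 and lost its call. Both counts of lower genes include Alox5, which passed the filter through PBS PMs alone. Pla2g4a was close to the threshold, at 3.02-fold, and was 2.99-fold without PBS library 5. Ltc4s was at -0.76 (limma adjusted p = 0.00656) and was not called, and at -0.35 after scaling (adjusted p = 0.186). As deposited, it missed an adjusted p of 0.01 without any single library among PBS 2, 5 and 6 and ΔMye Tat 19, 20 and 21. Its adjusted p was then 0.0117 to 0.0219.

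The other genes of eicosanoid metabolism were followed in a list of 54 symbols. All 54 had a row, 2 of them under a newer symbol (Plaat3 and Prxl2b), and 31 were tested. With Tat, 2 of the 31 were called higher and 12 lower, against 5.21% and 19.4% of all tested genes, and 3 and 8 after scaling, against 8.51% and 9.76%. Their median log2 difference was -1.10, against -0.65 over all tested genes, and -0.49 against -0.03 after scaling.

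The 2 called higher were Plaat3, a phospholipase, from 6.15 ± 0.71 to 57.9 ± 2.05 TPM (log2 difference 3.22, 3.85 scaled), and Fpr2, a receptor that binds lipoxin A4 among other ligands, from 126 ± 10.3 to 528 ± 16.7 TPM (2.07, 2.70 scaled). In ΔMye Tat they had 53.6 and 563 TPM, and neither passed the test against F/F Tat as deposited (adjusted p = 0.140 and 0.0977). After scaling Plaat3 was at -0.32 (adjusted p = 0.00123) and Fpr2 at -0.12 (adjusted p = 0.0771). Among phospholipases called lower, the lysosomal Pla2g15 went from 71.3 to 6.82 TPM (-3.37, -2.74 scaled) and the secreted Pla2g12a from 16.99 to 3.66 TPM (-2.19). Pla2g12a was at -1.57 after scaling and lost its call.

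Of 6 other prostanoid synthases tested, 2 rose and 4 fell with Tat, and after scaling 3 rose and 3 fell. By the same rule as deposited, 1774 of all 10451 tested genes rose and 7068 fell, so most genes fell in either set. The 2 synthases that rose as deposited were the other prostaglandin E synthases, both under 3-fold. Ptges2 went from 3.89 to 4.98 TPM (0.34, 0.96 scaled) and Ptges3 from 101 to 114 TPM (0.18, 0.81 scaled). Ptgis, the prostacyclin synthase, fell by 0.37 but was at 0.25 after scaling (adjusted p = 0.00950). These 3 genes were chosen after their values were seen. Both synthases called lower kept that call after scaling. Prxl2b, a prostaglandin F synthase, fell from 48.2 ± 3.64 to 4.76 ± 0.55 TPM (-3.32, -2.69 scaled), and Cbr1, a carbonyl reductase that converts prostaglandin E2 to F2α, from 20.3 ± 2.96 to 3.33 ± 0.57 TPM (-2.58, -1.95 scaled). Lta4h, which makes leukotriene B4 and so competes with Ltc4s for leukotriene A4, fell from 49.0 ± 1.55 to 10.1 ± 0.69 TPM (-2.27, -1.64 scaled). The reductases that inactivate prostaglandins and leukotriene B4 were also called lower, Ptgr1 from 94.7 to 17.4 TPM (-2.44, -1.81 scaled) and Ptgr2 from 20.6 to 3.02 TPM (-2.78, -2.16 scaled). Mgst2, listed with Lta4h as a leukotriene enzyme, rose from 1.28 to 2.77 TPM (1.17, 1.76 scaled) and was called only after scaling. Dpep2, listed with them, was at -0.23 as deposited and 0.40 scaled. Mgst2 and Dpep2 were named after their values were seen.

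Of the prostanoid and leukotriene receptors listed, 5 reached a mean of 1 TPM in some group. Ptger2 and Ptger4, the prostaglandin E2 receptors EP2 and EP4, were 11.2 ± 0.59 and 9.95 ± 1.04 TPM in PBS PMs and 4.72 ± 0.46 and 1.497 ± 0.087 TPM in F/F Tat, and Ptger4 was called lower (-2.65, -2.04 scaled). The leukotriene receptors Ltb4r1 and Cysltr1 were called lower, from 2.54 to 0.65 TPM and from 7.44 to 0.99 TPM, while Cysltr2 rose from 1.32 to 1.96 TPM (0.54, 1.14 scaled), under 3-fold. Ltb4r1 passed the filter of 1 TPM in 5 or more libraries through PBS PMs alone. After scaling Cysltr1 kept its call (-2.26) and Ltb4r1 lost it (-1.22). So the ligand-making Ptgs2 and Ptges were higher in the same libraries in which Ptger4 and Ptger2 were lower.

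Between the Tat groups, limma called 0 of the 31, of which 15 were higher and 2 lower at an unadjusted p under 0.05, where 52.0% and 12.0% of all tested genes were. By an adjusted p under 0.01 alone, 14 were higher in ΔMye Tat and 1, Ltb4r1, was lower, and 9 were higher and 6 lower after scaling. The 38.8% and 8.87% of all tested genes given above, and 16.4% and 18.8% after scaling, are the values to read these against. The widest of the differences was in Ptger4, which rose from 1.497 ± 0.087 to 4.13 ± 0.37 TPM (1.40, adjusted p = 1.63e-10, and 1.21 after scaling), followed among genes that rose by Ptgr2 (1.04, 0.84 scaled) and Pla2g15 (0.90, 0.69 scaled).

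**Figure D4:**
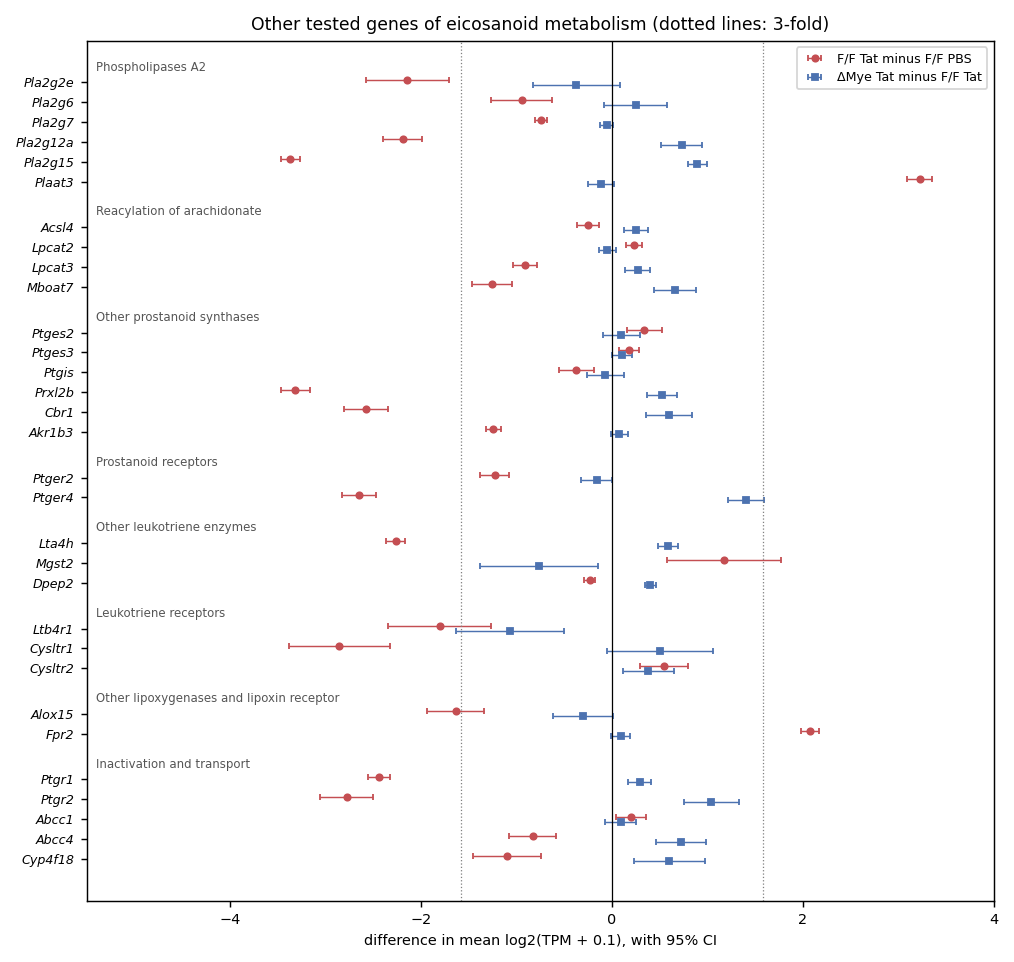
Log2 differences with 95% confidence intervals (x axis, TPM as deposited) of the 31 tested genes of the list by role, for F/F Tat minus PBS PMs (circles) and ΔMye Tat minus F/F Tat (squares), which share the F/F Tat libraries. Plaat3 and Fpr2 lie right of the 3-fold line with Tat and 12 genes left of the other; no square lies beyond 3-fold.

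By the smallest root mean square difference in log2(TPM + 0.1) over the 17 libraries, each gene set to 0 at its PBS PMs mean, the genes nearest to Ptgs2 were Il6 (0.31), Il1b (0.49) and Slamf1 (0.50). The log2 differences with Tat were 8.47, 7.36 and 7.68 for these 3, and those between the Tat groups were -1.45, -0.17 and -0.81. Those nearest to Alox5ap were Glul (0.14), Galc (0.15) and Tle5 (0.17), at -3.01, -3.12 and -3.15 with Tat and 0.71, 0.74 and 0.98 between the Tat groups.

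Mast cells, eosinophils and platelets also express genes of this pathway, so their markers were read in the same libraries. The summed TPM of 6 platelet markers was at most 1.45 and that of 5 eosinophil markers at most 2.64 in any library, and Gp1bb of the former was at 0 throughout. The summed TPM of 8 mast cell markers went from 34.4 to 46.9 in PBS PMs to 125 to 146 in F/F Tat and 78.8 to 90.3 in ΔMye Tat, of which Hdc, a gene that stimulated macrophages can express, made up most, with means of 0.57, 96.3 and 56.6 TPM. Without Hdc the sums were 33.9 to 46.5, 32.6 to 44.0 and 25.1 to 31.7. The summed TPM of 7 neutrophil markers was 57.5 to 68.7, 66.9 to 77.9 and 87.8 to 106, most of it S100a8, with Ngp at 0 in all libraries. Of the 6 macrophage markers Cd68 had means of 2596, 1744 and 1886 TPM and Csf1r 381, 64.0 and 104 TPM in the 3 groups. Itgam had 178, 106 and 116 TPM and Adgre1 499, 441 and 512 TPM. Mertk, at 15.4, 20.1 and 24.3 TPM, was higher with Tat. Marker values here are as deposited unless given as scaled. After scaling, the log2 differences with Tat were 1.01 for Mertk, 0.46 for Adgre1 and 0.06 for Cd68 (limma adjusted p = 0.139). They were -0.12 for Itgam, -1.05 for Lyz2 and -1.94 for Csf1r. The summed TPM of the 6 was 25494 to 26489, 9135 to 9755 and 6849 to 7145. Lyz2, the locus that carries the Cre, made up most of this sum. Of the other cell types listed, several moved between the Tat groups without overlap. The summed TPM of 5 markers of resident large peritoneal macrophages was 108 to 139, 110 to 129 and 69.7 to 99.1 in the 3 groups. Timd4, a receptor of resident macrophages, had means of 12.7, 21.7 and 7.09 TPM. Prg4 (49.8, 57.4 and 33.6) and Selp (1.79, 1.32 and 0.44) also had lower means in ΔMye Tat than in F/F Tat. Cd5l (57.9, 39.1 and 44.6) and Gata6 (1.55, 0.28 and 0.48) had higher means there. Scaled means in F/F Tat and ΔMye Tat were 47.2 and 46.5 for Cd5l and 0.34 and 0.50 for Gata6. The 4 fibroblast markers summed to 20.9 to 29.0, 20.9 to 25.3 and 12.6 to 16.6 TPM, and the 4 mesothelial markers to 3.34 to 5.02, 1.91 to 2.64 and 1.45 to 1.70 TPM. The 4 T cell markers went the other way, at 2.30 to 6.76, 1.40 to 2.26 and 5.04 to 7.25 TPM, and the 4 B cell markers overlapped, at 12.1 to 25.4, 10.9 to 14.5 and 8.20 to 12.6 TPM. The part of these markers in the results was not tested.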

How the data were processed

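The authors ran Salmon with Ensembl's GRCm38 annotation, and the deposited table gives TPM by gene symbol for 17 libraries. It holds no counts, so depth is unknown and precision is the spread between libraries. The authors' edgeR test was not repeated.

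Here limma 3.58.1 (R 4.3.3; eBayes with trend) was fitted to log2(TPM + 0.1) of every gene that reached 1 TPM in 5 or more libraries, the 3 groups in 1 fit with 14 residual degrees of freedom, and p-values were adjusted (Benjamini-Hochberg) over all 10451 genes. The pseudocount tends to make fold changes of low genes smaller. Ptgs1, with 2 ΔMye Tat libraries at 0, went the other way: ΔMye Tat was 4.20-fold below F/F Tat in the fit and 3.41-fold by the means. Other settings changed the pseudocount, the filter, the scaling, the libraries fitted or the fold threshold. Permutation tests and the mast cell list without Hdc were added after the data were seen. The fit was tested on simulated data.

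The 10 genes and all lists were chosen with earlier results of these data known. Also named were listed genes called in either of the first 2 comparisons with a mean of at least 10 TPM, receptors with at least 1 TPM, the 3 genes nearest to Ptgs2 and to Alox5ap, and Ikbkb. Coordinates are from GENCODE M21, and motifs were chosen after the Ptgs2 window was read. At most 2.22% (Hpgds) of the 31-base stretches of a gene's transcripts occurred in another gene. Annotations on the opposite strand overlap 6 of the 10 genes, and whether quantification used strand is not given in the sources used here. Python 3.11.15, numpy 2.4.6, pandas 2.3.3 and scipy 1.17.1 were used. A further allele that all 3 groups share is not reported here.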

Additional observations from a re-analysis of the deposited data

Results flagged for a closer look

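Alox5ap in ΔMye Tat library 20 was 55.2 TPM, and the nearest of the other 4 libraries was at 46.6 TPM. The gap was 0.831 of the whole range of the group, above the limit of Dixon's test for 5 values. In 30 groups of values checked this was the only such gap, and chance gives about 1 in 20 groups. Without that library Alox5ap had a mean of 45.6 ± 0.76 TPM (SD, n = 4) in ΔMye Tat and stayed above F/F Tat.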

How the results depend on the processing

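With Tat, the number of the 10 genes called lower (7) was 4 with a pseudocount of 1, 3 with median-ratio scaling and 4 with quantile normalization. Between the Tat groups, the 0 called higher and the 1 called lower became 4 and 4 with no fold threshold, and the 1 called lower became 0 with a pseudocount of 0.5, a pseudocount of 1 and a filter of 5 TPM, which leaves out Ptgs1 and Alox5. The 4 higher at adjusted p alone became 2 with median-ratio scaling and 2 with quantile normalization, and the 4 lower became 2 with the filter of 5 TPM. Pla2g4a reversed to -0.036 with median-ratio scaling, and Ptgir to -0.19 with it and to -0.15 with quantile normalization. For scaling and quantile normalization the cause was not tested. Ptgs1 missed the threshold with Tat under quantile normalization (-0.88, adjusted p = 0.0963), as did Ltc4s between the Tat groups (0.55, adjusted p = 0.0647). Ptgs2, Ptges, Tbxas1 and Alox5ap passed the adjusted p with the same sign in every comparison and setting run. No paired analysis was run, because the labels do not say whether libraries of different groups came from the same mouse. Unknown depth limits what can be said of Ptgs1, Alox5 and Ltc4s.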
